A study of Mus musculus with 4 samples.

Results

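The 8 genes described here act in the lamellar body and in the turnover of surfactant: Abca3, Lamp3, Slc34a2, Atp11a, Abca1, Muc1, Cd63 and Dram1. They were chosen by symbol, and all 8 of 8 were found as single rows among the 22565 genes of the deposited table. RNA was measured by sequencing in AT2 cells, the type II epithelial cells of the alveolus, which were purified by flow cytometry from lungs of untreated mice aged 6 months. Of 4 libraries, 2 came from wild type (WT) mice and 2 from mice labelled knockout (KO). The genotype field names Fbxo45 for KO replicate 1 and Fbxo46 for KO replicate 2, while the growth protocol names Fbxo45-cKO alone. Pairs of values below give replicate 1 first. With the strain, the deleted part of the gene, the driver of the deletion and the number of mice not given in the sources used here, p-values measure the spread between libraries, which may be technical. The question of the design is whether AT2 cells of the 2 genotypes differ.

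AT2 cells make surfactant, the lipid and protein film that lowers surface tension in the alveolus. They pack its phospholipid into lamellar bodies, acidic organelles related to lysosomes, and release it by exocytosis. Used surfactant is in part taken up again by the same cells and either returned to lamellar bodies or broken down, which frees phosphate, and the rest is cleared by macrophages.

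None of the 8 genes passed the test between KO-labelled and WT libraries (limma over all genes tested, of which 0.0% passed). For 6 of the 8 the KO-labelled libraries lay on opposite sides of both WT values, as they did for 30.4% of all genes tested. The WT libraries were close to each other for these 6 genes, with the higher value between 1.01 times the lower for Muc1 and 1.07 times for Lamp3. Taking genes whose WT values lie between the KO-labelled ones favours close WT pairs. For the other members the ratio was 1.04 for Dram1 and 1.31 for Abca1. Abca1 was the single member with both KO-labelled values above both WT values, at 1.5 times the WT mean, and Dram1 was the single member below, at 0.892 times; of all genes tested, 20.0% were above and 15.1% below in this way. Cd63 in KO replicate 1 lay farthest from WT, at 96.7 FPKM against 187 and 199 FPKM (FPKM values are fragment counts scaled to transcript length and library total).

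The WT libraries held 4167129 and 8200216 fragments and the KO-labelled libraries 9507490 and 7066442, as recovered from the deposited estimated counts. With 0 fragments a gene may still be at up to 0.72 CPM (fragments scaled to the library total) in the shallowest library and 0.316 CPM in the deepest (3 fragments, counting error only). All 12 AT2 markers found in the table stood above 1 FPKM in every library. Their sum had WT values of 157070 and 151330 FPKM and KO-labelled values of 104398 and 146515 FPKM, lower in both. Sftpc, the surfactant protein C gene, made up most of it. It had WT values of 101544 and 94984 FPKM and KO-labelled values of 54458 and 87684 FPKM. Sftpb, Sftpd and Nkx2-1 were likewise lower in each KO-labelled library than in either WT library. Hc and Lpcat1 went the other way. Hc had WT values of 1206 and 1404 FPKM and KO-labelled values of 1500 and 1520 FPKM. Lpcat1 had WT values of 647 and 657 FPKM and KO-labelled values of 702 and 681 FPKM. The remaining AT2 markers showed neither order. The part of these differences in the results below was not tested. The 8 T and NK cell markers were listed at 0 in every library. Fbxo45 itself did not set the groups apart, with KO-labelled values of 4.41 and 7.58 FPKM and WT values of 4.6 and 5.91 FPKM. Fbxo46 did not either, with KO-labelled values of 3.82 and 4.80 FPKM and WT values of 4.13 and 3.79 FPKM. Fbxo46 was highest in KO replicate 2, the library whose genotype field names it. Every direction below is therefore that of a label. A value for a whole gene cannot show the loss of single exons. KO replicate 1 stood apart from the others in skeletal muscle markers, whose 10 genes summed to 1263 FPKM there and to between 0.544 and 10.5 FPKM elsewhere, and the KO-labelled libraries had the lowest correlation of any pair (0.905 over log2 values of tested genes, against 0.971 for the WT pair). In bulk samples fewer cells of a type and less RNA per cell cannot be told apart.

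The start regions of Abca1 and Dram1 are shown because these are the members whose groups did not overlap in FPKM; the choice was made with their values and motif matches known. Each is the 250 bases before the RefSeq start (GRCm38.p6), read 5′ to 3′ on the gene's strand, with matches of the searched motifs in capitals. Abca1 lies at chr4:53159896-53160145 on the minus strand and Dram1 at chr10:88357076-88357325 on the minus strand. No GENCODE M21 exon overlaps either stretch.
Abca1: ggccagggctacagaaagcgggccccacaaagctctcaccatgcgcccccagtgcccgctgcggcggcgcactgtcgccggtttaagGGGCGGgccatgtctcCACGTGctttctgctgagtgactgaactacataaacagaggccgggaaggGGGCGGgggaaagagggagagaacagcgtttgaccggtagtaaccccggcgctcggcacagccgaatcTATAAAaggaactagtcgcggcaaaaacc
Dram1: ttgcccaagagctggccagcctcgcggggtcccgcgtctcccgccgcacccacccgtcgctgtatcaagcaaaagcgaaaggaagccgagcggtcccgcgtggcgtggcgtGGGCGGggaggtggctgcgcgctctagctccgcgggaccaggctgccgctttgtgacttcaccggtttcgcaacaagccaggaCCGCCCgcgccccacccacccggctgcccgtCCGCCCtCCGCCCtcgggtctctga

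In the Abca1 stretch the capitals mark an E-box (CACGTG), first base 147 bases before the start, GC boxes (GGGCGG) at 163 and 97 bases and a TATA box (TATAAA) at 29 bases. In the Dram1 stretch they mark GC boxes at 139, 56, 25 and 18 bases, the last 3 on the reverse strand. The E-box occurs in 6.05% of the same windows of 27025 promoters, the GC box in 32.9% and the TATA box in 13.0%, counting both strands. Of the 8 members, 5 hold a GC box (Abca3, Atp11a, Abca1, Muc1 and Dram1), Abca1 and Muc1 a TATA box, and Abca1 alone an E-box, the core of the sites bound by the lysosomal regulator TFEB and by many other factors. Slc34a2 holds the C/EBP palindrome TTGCGCAA, 48 bases before its start, which 0.17% of promoters have. This window overlaps annotated exons of Gm17182 and of Slc34a2 itself. The windows of Abca3, Lamp3 and Atp11a each overlap annotated exons of their own gene too. A CCAAT box (CCAAT, in 34.5% of promoters) was found in Muc1 alone, and the NKX2-1 core CTCAAG (13.6%) and the cAMP response element TGACGTCA (1.62%) in no member. The Dram1 window lies within the annotated span of Dram1, upstream of the start that RefSeq gives. These are matches of letters, not measured binding.

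By level, the 8 genes ran from rank 5 of the 11055 tested, held by Slc34a2 in every library, to ranks 5764 to 7668, held by Abca1. Levels are compared between genes in FPKM, which is per length. Slc34a2 stood at 5759 ± 225 FPKM (SD over all 4 libraries) and Lamp3 at 1083 ± 153 FPKM. Abca3 came next at 614 ± 44.1 FPKM and Dram1 at 566 ± 42.5 FPKM, with overlapping ranges and Abca3 higher in 3 of 4 libraries. Atp11a at 465 ± 35.8 FPKM and Muc1 at 458 ± 79.9 FPKM also overlapped, and Muc1 was the higher of this pair in KO replicate 1. Cd63 stood at 176 ± 54.8 FPKM and Abca1 at 7.66 ± 1.9 FPKM, with ranges apart from each other and from Muc1. Apart from the pairs of Abca3 with Dram1 and Atp11a with Muc1, no neighbours in this order overlapped. Together the 8 genes made up 4.24% and 4.18% of WT fragments and 4.08% and 4.26% of KO-labelled fragments. Without Slc34a2 the share was 1.44% and 1.48% in WT and 1.33% and 1.45% in the KO-labelled libraries.

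**Figure D1:**
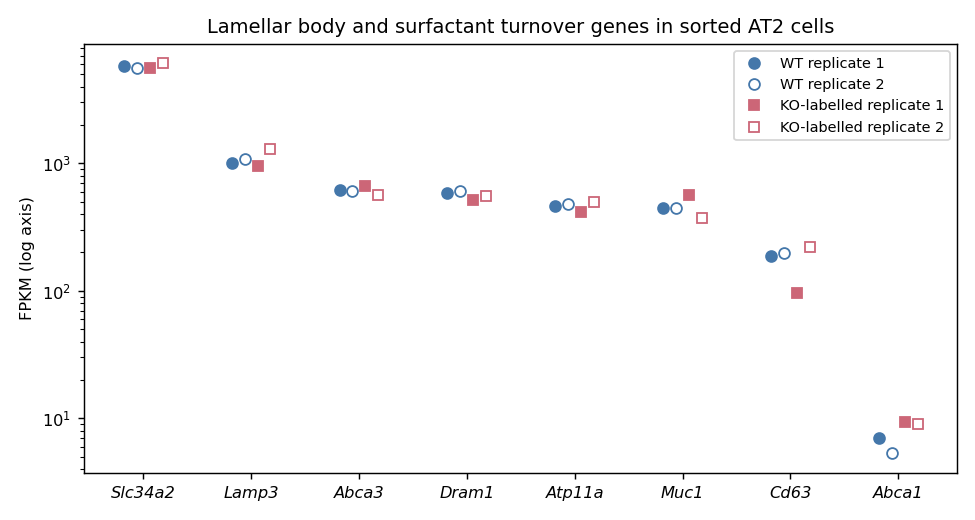
FPKM (log axis) of the 8 genes in each library, ordered by their mean over the 4 libraries; circles are WT, squares KO-labelled, filled symbols replicate 1 and open symbols replicate 2. The levels run from Slc34a2, between 5573 and 6065 FPKM, to Abca1, between 5.3 and 9.43 FPKM, and the squares of Cd63 and Muc1 lie farther apart than the circles.

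The lipid transporters come first. Abca3 (ENSMUSG00000024130, chromosome 17, 24351950 to 24410201, plus strand, GENCODE M21, GRCm38) encodes the ATP-binding cassette transporter that carries phospholipid into the lamellar body. Abca3 had WT values of 623 and 605 FPKM and KO-labelled values of 668 and 562 FPKM, so that the WT values lay between the KO-labelled ones. The group values were 614 ± 12.5 and 615 ± 75.3 FPKM (SD, n = 2 each), and the difference, KO-labelled minus WT on the log2(FPKM + 1) scale, was -0.0024 (SE 0.209, limma adjusted p = 0.998). In CPM, with no scaling to length, Abca3 was lower in both KO-labelled libraries, at 3443 and 3177 CPM against 3954 and 3878 CPM in WT. The exact binomial 95% intervals of the 4 libraries ran from 3135 to 3218 CPM at the lowest and from 3894 to 4014 CPM at the highest; such intervals, here and for Abca1, cover counting error only and not the spread between libraries. The fragment-based log2 difference was -0.25 (edgeR adjusted p = 0.999), so the CPM difference did not pass the test either. On the CPM scale the groups of Abca3 and Dram1 did not overlap, with KO-labelled lower, as in 17.1% of tested genes, and those of Abca1 did not, with KO-labelled higher, as in 16.4%.

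The number of counts behind 1 FPKM differed between libraries for some members. In KO replicate 1 it was 78.2% of the WT mean for Abca3 and 81.9% for Atp11a, and in KO replicate 2 it was 92.1% and 104.6%. Over the 5914 tested genes with at least 100 fragments in every library, the median was 101.5% and 99.5%, and the range from the 5th to the 95th percentile was 62.0% to 118% in KO replicate 1 and 76.2% to 121% in KO replicate 2. In the WT libraries each of the 8 members was between 99.5% and 100.5%. The 9 annotated transcripts of Abca3 hold 3 protein-coding ones of 5202 to 6476 bases, and the 11 of Atp11a hold 6 of 567 to 7549 bases. The table gives no value per transcript. Exons of Abca3 overlap those of D330041H03Rik on the other strand, and whether counting used the strand is unstated in these sources.

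**Figure D2:**
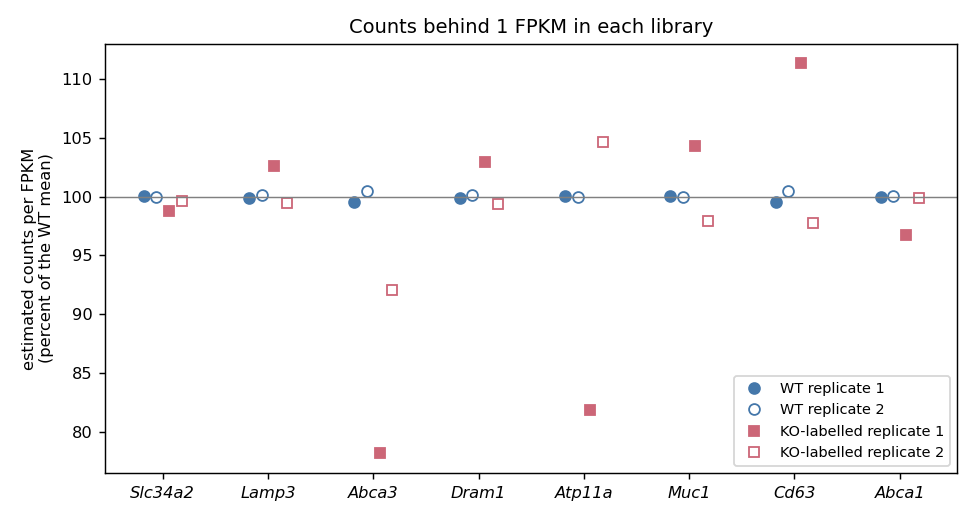
Deposited estimated counts divided by FPKM for each gene and library, in percent of the mean of the WT libraries (circles WT, squares KO-labelled, filled replicate 1, open replicate 2). KO replicate 1 stands at 78.2% for Abca3, 81.9% for Atp11a and 111% for Cd63, and the WT libraries lie between 99.5% and 100.5%.

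Atp11a (ENSMUSG00000031441, chromosome 8, 12757014 to 12868728, plus strand) encodes a P4-ATPase, a flippase that moves aminophospholipids to the inner face of membranes. It had WT values of 466 and 477 FPKM and KO-labelled values of 416 and 501 FPKM, again with WT in between. The difference was -0.046 on the log2 scale (SE 0.207, limma adjusted p = 0.988), and -0.14 on fragments (edgeR adjusted p = 0.999). The libraries differed more in CPM, at 3415 and 3493 CPM in WT, 2578 CPM in KO replicate 1 and 3698 CPM in KO replicate 2. Its locus in the table is shared with Mcf2l, and its exons overlap those of Gm15347 and Gm15350 on the other strand, so its values are uncertain.

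Abca1 (ENSMUSG00000015243, chromosome 4, 53030787 to 53159895, minus strand) encodes the exporter of cholesterol and phospholipid to apolipoprotein A-I and is a target of the LXR receptors. Abca1 had WT values of 6.96 and 5.3 FPKM and KO-labelled values of 9.43 and 8.94 FPKM. Both KO-labelled values lay above both WT values, as they did in 20.0% of the 11055 genes tested. The group values were 6.13 ± 1.17 and 9.19 ± 0.349 FPKM (SD, n = 2 each), and the log2 difference of 0.52 (SE 0.256) did not pass, with a limma adjusted p of 0.948 and an unadjusted p of 0.0872. On fragments the log2 difference was 0.55 (edgeR adjusted p = 0.999, unadjusted p = 0.0334), and the libraries held 355 and 532 fragments in WT and 1096 and 743 in KO replicates 1 and 2. The CPM were 85.2 and 64.9 in WT, with exact binomial 95% intervals of 76.6 to 94.5 and 59.5 to 70.6, and 115 and 105 in the KO-labelled libraries (109 to 122 and 97.7 to 113). Macrophages express Abca1 strongly; the 10 macrophage markers found summed to between 25.7 and 27.0 FPKM in WT and to 27.2 and 27.0 FPKM in KO replicates 1 and 2, of which Cd14 gave 21.1 to 24.6 FPKM. Marco, Itgax and Msr1 were listed at 0 in all 4 libraries. From the same list, Fabp4 had WT values of 0 and 0.22 FPKM and KO-labelled values of 4.57 and 1.39 FPKM, higher in the latter. Mertk had WT values of 1.10 and 1.29 FPKM and KO-labelled values of 1.05 and 1.06 FPKM, lower in the latter. Mrc1 and Csf1r, below 1 FPKM in every library, were also lower. C1qa was at 0.359 FPKM in KO replicate 1 and listed at 0 elsewhere, and C1qb and Cd14 showed neither order. Cd68, which is outside this list, had WT values of 7.39 and 7.28 FPKM and KO-labelled values of 13.6 and 7.08 FPKM. The part of macrophage RNA in the Abca1 values was not tested.

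Among the proteins of the organelle membrane, Lamp3 (ENSMUSG00000041247, chromosome 16, 19653378 to 19706375, minus strand) encodes DC-LAMP, a lysosomal membrane glycoprotein that marks lamellar bodies in AT2 cells. It had WT values of 1009.7 and 1077 FPKM and KO-labelled values of 948 and 1299 FPKM. KO replicate 1 was thus the lowest and KO replicate 2 the highest of the 4 libraries. The difference was 0.090 on the log2 scale (SE 0.247, limma adjusted p = 0.983), and 0.10 on fragments (edgeR adjusted p = 0.999). Lamp3 has 1 annotated transcript, of 3356 bases, and shares no 100-base stretch with another gene.

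Cd63 (ENSMUSG00000025351, chromosome 10, 128900989 to 128912822, plus strand) encodes a tetraspanin of late endosomes, lysosome-related organelles and exosomes. Cd63 had WT values of 187 and 199 FPKM and KO-labelled values of 96.7 and 221 FPKM. KO replicate 1 lay 0.99 below the WT mean on the log2(FPKM + 1) scale and KO replicate 2 lay 0.20 above it. The group values were 193 ± 8.1 and 159 ± 88.1 FPKM (SD, n = 2 each), with a log2 difference of -0.40 (SE 0.391, limma adjusted p = 0.948), and -0.28 on fragments. Without KO replicate 2 the difference was -0.99 and passed, with a limma adjusted p of 0.0419, as 1.21% of tested genes did, the lone KO-labelled library being assumed to vary like the WT pair. Without KO replicate 1 it was 0.20, the opposite direction (limma adjusted p = 0.392). In CPM the order of libraries was kept, at 162 and 173 CPM in WT, 96.1 CPM in KO replicate 1 and 180.1 CPM in KO replicate 2. Cd63 shares 12.3% of its 100-base stretches with the pseudogene Cd63-ps and is uncertain to that extent. The library with low Cd63 is also that with 1263 FPKM of skeletal muscle markers; the part of this in the result was not tested.

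Dram1 (ENSMUSG00000020057, chromosome 10, 88322804 to 88379080, minus strand) encodes a lysosomal membrane protein that p53 induces and that promotes autophagy. It had WT values of 586 and 611 FPKM and KO-labelled values of 512 and 556 FPKM. Both KO-labelled values lay below both WT values, as in 15.1% of tested genes. The group values were 599 ± 18.1 and 534 ± 30.8 FPKM (SD, n = 2 each), and the difference was -0.16 on the log2 scale (SE 0.198, limma adjusted p = 0.961), the same on fragments (edgeR adjusted p = 0.999). In the deposited table its locus is a bundle shared with 13 other genes, among them Spic and Chpt1, and its values are uncertain for that reason.

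On the surface facing the air, Slc34a2 (ENSMUSG00000029188, chromosome 5, 53038081 to 53071664, plus strand) encodes the sodium-phosphate cotransporter NaPi-IIb, which takes up phosphate and whose loss in humans causes alveolar microlithiasis. Slc34a2 had WT values of 5788 and 5609 FPKM and KO-labelled values of 5573 and 6065 FPKM. The highest of the 4 values was 1.09 times the lowest, the narrowest range among the 8 genes. The difference was 0.029 on the log2 scale (SE 0.267, limma adjusted p = 0.992), and 0.0071 on fragments (edgeR adjusted p = 0.999). Slc34a2 alone took 2.8% and 2.7% of all fragments in WT and 2.74% and 2.81% in KO replicates 1 and 2.

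Muc1 (ENSMUSG00000042784, chromosome 3, 89229057 to 89233381, plus strand) encodes a transmembrane mucin of the apical surface. It had WT values of 442 and 448 FPKM and KO-labelled values of 567 and 375 FPKM. Muc1 and Abca3 were thus high in KO replicate 1 and low in KO replicate 2, the reverse of Lamp3, Slc34a2, Atp11a and Cd63. The group values of Muc1 were 445 ± 3.82 and 471 ± 136 FPKM (SD, n = 2 each), with a log2 difference of 0.052 (SE 0.258, limma adjusted p = 0.988), and 0.11 on fragments.

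Against the background of all genes, the split of the KO-labelled libraries around WT was common. Beside the 30.4% among the 11055 genes tested, of the 447 genes with a mean of at least 100 FPKM, among which are 7 of the 8 members, 42.1% had the KO-labelled libraries on opposite sides of WT. The direction with KO replicate 1 below and KO replicate 2 above, that of 4 members, was found in 17.3% of tested genes, and the reverse, that of Abca3 and Muc1, in 13.0%. The median distance of a WT library from the WT mean was 0.027 for the members and 0.092 for all tested genes on the log2 scale. Each WT library enters this mean and the KO-labelled libraries do not, so WT distances are smaller by construction and cannot be set against those that follow. KO replicate 1 lay at a median distance of 0.20 from the WT mean over the members and KO replicate 2 at 0.16, against 0.31 and 0.29 for all tested genes. By tool, limma called 0 of 11055 (0.0%), and before adjustment 535 genes (4.84%), no member among them, had a p below 0.05, and edgeR called 0 of 11705 (0.0%), with 372 below 0.05 before adjustment. DESeq2 called 7 of 15326 (0.0457%), none a member.

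**Figure D3:**
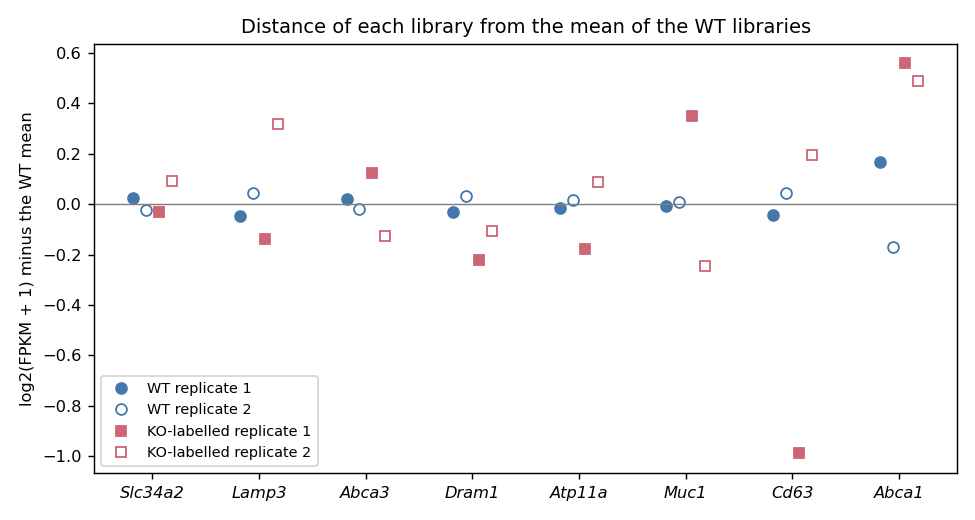
Distance of each library from the mean of the WT libraries on the log2(FPKM + 1) scale for the 8 genes (circles WT, squares KO-labelled, filled replicate 1, open replicate 2). The squares fall on opposite sides of 0 for 6 genes, both above for Abca1 and both below for Dram1, and Cd63 in KO replicate 1 is at -0.99.

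The families of the members were described from lists of their genes. In none of the lists did a gene pass over all genes tested, and the median log2 difference of all tested genes was 0.035. Of 8 tested ABCA transporters, 4 were higher and 4 lower, with a median of 0.029. Abca17 had the smallest unadjusted p of the family (0.00524, limma adjusted p = 0.948), with WT values of 15.7 and 13.9 FPKM and KO-labelled values of 27.1 and 30.5 FPKM; its difference was 0.92 on FPKM and 0.95 on fragments. It lies next to Abca3 on chromosome 17, at 24264259 to 24351068 on the minus strand, with 881 bases between the genes, so both are read away from the gap. Abca2 had WT values of 18.1 and 15.6 FPKM and KO-labelled values of 12.7 and 19.7 FPKM. Abca3 was thus far above every other member of its family in level.

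Of 11 tested flippases and CDC50 subunits, 5 were higher and 6 lower, with a median of -0.046. Atp8a1, another flippase, was at a level near that of Atp11a, with WT values of 486 and 485 FPKM and KO-labelled values of 434 and 623 FPKM. Tmem30a, which encodes the CDC50A subunit that most flippases need, had WT values of 121 and 142 FPKM and KO-labelled values of 94.2 and 186 FPKM. Both had KO replicate 1 as the lowest and KO replicate 2 as the highest library, as Atp11a had. With Atp11a included, 5 of the 11 did so, against 17.3% of all genes tested. Among genes at a mean of at least 100 FPKM, a split in either direction was more common (42.1% against 30.4% of all tested). Atp11b had WT values of 19.1 and 19.0 FPKM and KO-labelled values of 28.3 and 26.9 FPKM (log2 difference 0.51, limma adjusted p = 0.948), but its difference on fragments was 0.11.

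In the LAMP family, Lamp1 had WT values of 285 and 277 FPKM and KO-labelled values of 256 and 294 FPKM, and Lamp2 had 160 and 142 FPKM against 127 and 198 FPKM. Both are general lysosomal membrane proteins. Both, like Lamp3, were lowest in KO replicate 1 and highest in KO replicate 2, as 17.3% of all genes tested were. Cd68, a LAMP relative of macrophages, had WT values of 7.39 and 7.28 FPKM and KO-labelled values of 13.6 and 7.08 FPKM. Of the 4 tested, 3 were higher and 1 lower. Lamp5 was listed at 0 in all libraries.

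Of 19 tested tetraspanins, 6 were higher and 13 lower, with a median of -0.048. The abundant relatives Cd9 and Cd81 had KO replicate 1 lowest and KO replicate 2 highest, as Cd63 had. Cd9 had WT values of 213 and 181 FPKM and KO-labelled values of 131 and 254 FPKM, and Cd81 had 145 and 135 FPKM against 103 and 147 FPKM. This order, KO replicate 1 below and KO replicate 2 above both WT values, was found in 8 of the 19, Cd63 included. The reverse was found in 1. Over all genes tested the shares were 17.3% and 13.0%. A split in either direction was more common among genes at a mean of at least 100 FPKM, such as Cd9, Cd63 and Cd81 (42.1% against 30.4% of all tested). Tspan11, by contrast, lay between 91.5 and 98.9 FPKM in the 4 libraries. Tspan15 had WT values of 17.1 and 12.3 FPKM and KO-labelled values of 0.188 and 15.9 FPKM (limma adjusted p = 0.948).

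Slc34a2 stood far above the other phosphate transporters in level: Slc20a1 lay between 13.4 and 16.5 FPKM, the exporter Xpr1 between 10.7 and 11.1 FPKM and Slc20a2 between 5.33 and 6.28 FPKM. Of the 4 tested, 3 were higher and 1 lower. Of the membrane mucins, 3 passed the filter, and Muc4, between 16.6 and 20.6 FPKM, and Muc20, between 6.33 and 10.5 FPKM, were far below Muc1; all 3 were higher in the KO-labelled libraries on average. In the DRAM family Dram2 had WT values of 98.4 and 99.9 FPKM and KO-labelled values of 85.7 and 135 FPKM, and Tmem150a lay between 4.14 and 6.59 FPKM; of 5 tested, 1 was higher and 4 lower.

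**Figure D4:**
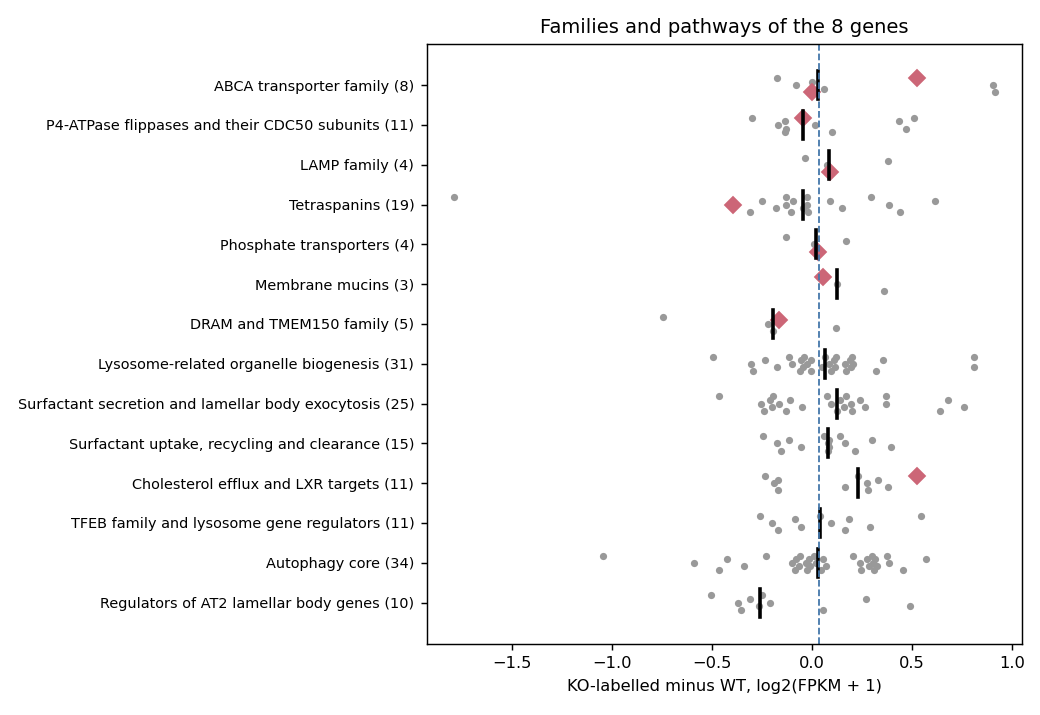
Log2 difference, KO-labelled minus WT, of each tested gene in the families and pathways of the 8 genes; diamonds are the 8 genes, grey points other genes, black bars list medians, and the dashed line the median of all 11055 tested genes (0.035). The number of tested genes is in parentheses, and list medians run from -0.26 for regulators of AT2 lamellar body genes to 0.23 for cholesterol efflux and LXR targets (-0.12 and -0.024 without KO replicate 1).

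No gene of the pathways around the members passed over all genes tested. Of 31 tested genes of lysosome-related organelle biogenesis, the adaptor and BLOC complexes that build such organelles, 17 were higher and 14 lower (median 0.066). Dtnbp1, the BLOC-1 subunit dysbindin, had WT values of 8.44 and 11.5 FPKM and KO-labelled values of 22.3 and 14.5 FPKM (log2 difference 0.81, limma adjusted p = 0.948). Lrrk2, a kinase abundant in AT2 cells, had WT values of 161 and 200.3 FPKM and KO-labelled values of 447 and 224 FPKM, and its difference of 0.81 on FPKM was 0.31 on fragments. Of 25 tested genes of surfactant secretion, 15 were higher and 10 lower (median 0.12), and 9 had both KO-labelled values above both WT values, beside 20.0% of all genes. Stx4a, a syntaxin of the plasma membrane, had WT values of 8.13 and 9.57 FPKM and KO-labelled values of 16.4 and 14.9 FPKM, and Nsf, the ATPase that takes SNARE complexes apart, had 12.4 and 12.3 FPKM against 18.5 and 22.4 FPKM (limma adjusted p = 0.948 for both). Of 15 tested genes of surfactant uptake and clearance, 10 were higher and 5 lower (median 0.080). Prdx6, an enzyme with phospholipase activity toward surfactant lipid, had WT values of 264 and 212 FPKM and KO-labelled values of 364 and 233 FPKM.

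Around Abca1, 11 genes of cholesterol efflux and LXR action were tested, of which 7 were higher and 4 lower (median 0.23), and for 5, Abca1 included, both KO-labelled values exceeded both WT values (20.0% of all genes). The median was -0.024 without KO replicate 1, 0.085 without WT replicate 2, 0.36 without KO replicate 2 and 0.067 on fragments. Nr1h2, which encodes LXR beta, had WT values of 24.8 and 29.7 FPKM and KO-labelled values of 35.3 and 35.7 FPKM (log2 difference 0.38, limma adjusted p = 0.948), but on fragments its difference was -0.17. The LXR targets Srebf1, Apoe and Lpcat3 had the highest levels of the list, and none set the groups apart. Srebf1 had WT values of 94.9 and 100.1 FPKM and KO-labelled values of 97.1 and 74.8 FPKM, and Apoe had 175 and 147 FPKM against 167 and 121 FPKM. In both, KO replicate 1 lay between the WT values and KO replicate 2 below them. Lpcat3 had 41.0 and 34.2 FPKM against 53.3 and 33.3 FPKM, with KO replicate 1 above both WT values and KO replicate 2 below them. Among 11 tested TFEB family and lysosome regulators, 6 were higher and 5 lower (median 0.040).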

How the data were processed

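RNA of sorted AT2 cells was sequenced in 4 libraries, 2 WT and 2 KO-labelled, grouped by sample title. Per the labels' protocols, total RNA was depleted of ribosomal RNA and made into stranded libraries. Per the submitters' processing notes, the tools were cutadapt 1.9.3, HISAT2 2.0.4, Cufflinks and Cuffdiff 2.2.1 with build mm10, with parameters and annotation not given in the sources used here. Per the file headers, the deposited table gives FPKM and counts per library. The deposited counts are estimated counts: each library's values are mostly multiples of 1 constant, and division by it made between 90.5% and 92.4% of positive values whole within 0.05. These recovered fragments were rounded for count tests.

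The members and lists were chosen with earlier results of these data known. Values were compared on the log2(FPKM + 1) scale with limma 3.58.1 in R 4.3.3 (eBayes with a mean-variance trend), no covariate, Benjamini-Hochberg adjustment over the 11055 genes with at least 1 FPKM in at least 2 libraries, threshold 0.05, two-sided. Differences on this scale understate changes of low genes. Recovered fragments were tested with the quasi-likelihood test of edgeR 4.0.16 after TMM scaling, and with DESeq2 1.42.0. Other alternatives were a pseudocount of 0.1, no filter, a filter of 5 FPKM, other scalings, a replicate block and leaving out each library. The fits were tested on simulated data. Named genes were the members, Fbxo45, Fbxo46 and genes of the lists. Per list these were up to 3 by smallest unadjusted p and, in lists that hold a member, up to 3 by level. Lamp5, Spic, Chpt1 and the single cell type markers named were chosen after their values or loci were seen. Marker lists not cited in the report summed to at most 22.9 FPKM for dendritic and B cells, 6.68 for neutrophils and 11.5 for endothelial cells, and to 34.8 to 119.9 for fibroblasts and smooth muscle, 769 to 1082 for AT1 cells and 829 to 1347 for club and ciliated cells. Gene coordinates are from GENCODE M21 (GRCm38, also called mm10), promoters from RefSeq (GRCm38.p6, all 8 members matched). Motifs were chosen by hand. The CLEAR element and an LXR DR4 element were also searched at first and, in the letters searched, matched no member. Sites with other letters are missed by such a search, so it does not show that the members lack these elements. Shared sequence is the percent of 100-base stretches (1 in 4) of a gene's transcripts found in transcripts of other genes.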

Additional observations from a re-analysis of the deposited data

How the results depend on the processing

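Across 12 alternatives for each of the 8 genes, 85 of 96 differences kept their direction and stayed unpassed, 10 took the opposite direction and 1, Cd63 without KO replicate 2, passed at -0.99 (limma adjusted p = 0.0419). Abca1 stayed higher (0.36 to 0.69) and Dram1 lower (-0.22 to -0.11) under every alternative run. Leaving out a library could not turn these signs, because the groups of both genes did not overlap in FPKM. No filter, the filter of 5 FPKM and the replicate block leave every member difference as in the main test, so they could not turn a sign either. With equal library totals Abca3 was at 0.054 and Atp11a at 0.010, and with median-ratio size factors Slc34a2 was at -0.011, each opposite to its sign in the main test. When each library was left out in turn, the difference ranged from -0.13 to 0.12 for Abca3, -0.14 to 0.32 for Lamp3, -0.032 to 0.090 for Slc34a2, -0.18 to 0.088 for Atp11a, -0.25 to 0.35 for Muc1 and -0.99 to 0.20 for Cd63. For Abca3 the opposite signs were 0.018 without WT replicate 1 and 0.12 without KO replicate 2. For Atp11a, Muc1 and Cd63 it was without KO replicate 1 that the sign turned, and for Lamp3 and Slc34a2 without KO replicate 2. Genes called over the whole table numbered 7 with DESeq2, and between 0 and 134 when a library was left out (134 without KO replicate 2, 3 without WT replicate 2); members called then numbered 0 to 1. The cause of these changes was not tested. Deviations of same-numbered libraries from their group means had an r of 0.0257 over tested genes. With 2 libraries a group these deviations mirror each other, so this value cannot decide whether the numbers are a pairing. The titles do not say that they are. With the replicate block 0 genes and 0 members were called, the lowest limma adjusted p being 0.072. Of 180 list medians, 165 stayed within the spread between libraries. The median of the 8 members, 0.013 in the main test, moved beyond it under several settings. It was 0.070 with equal library totals, -0.026 with median-ratio size factors, -0.068 with edgeR and -0.063 with DESeq2. Without KO replicate 1 it was 0.089, and without KO replicate 2 it was -0.084. With 2 libraries a group, a change has to be large beside the spread of the KO-labelled pair to pass.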

Other observations

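Genes of autophagy and of AT2 gene control complete the surroundings of the 8 genes. Of 34 tested core autophagy genes, 19 were higher and 15 lower in the KO-labelled libraries, with a median log2 difference of 0.029 and none passing over all genes. In 4 of the 34, Map1lc3a among them, both KO-labelled values lay below both WT values, beside 15.1% of all genes tested. In 9 of the 34 both lay above, beside 20.0%. Map1lc3a, an LC3 protein of the autophagosome membrane, had WT values of 61.4 and 58.0 FPKM and KO-labelled values of 42.8 and 45.6 FPKM (log2 difference -0.43, -0.50 on fragments, limma adjusted p = 0.948). Tax1bp1, an autophagy receptor, had WT values of 43.3 and 42.0 FPKM and KO-labelled values of 54.0 and 75.5 FPKM (log2 difference 0.57, limma adjusted p = 0.948).

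Of 10 tested regulators of AT2 lamellar body genes, 3 were higher and 7 lower, with a median of -0.26, and in 5 the KO-labelled pair lay below the WT pair, as in 15.1% of all genes tested. Without KO replicate 1 the median was -0.12. Cebpa, a transcription factor of AT2 maturation, had WT values of 128 and 118 FPKM and KO-labelled values of 64.5 and 116 FPKM (log2 difference -0.51, limma adjusted p = 0.948). Foxa2 had WT values of 44.0 and 35.1 FPKM and KO-labelled values of 32.1 and 28.9 FPKM (log2 difference -0.36, limma adjusted p = 0.948). Stat3 had WT values of 90.6 and 100.5 FPKM and KO-labelled values of 148 and 122 FPKM, a difference of 0.49 on FPKM and -0.0072 on fragments (limma adjusted p = 0.948).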
